A study of Saccharomyces cerevisiae with 160 samples.

Results

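A set of 10 genes of yeast meiosis was followed through 9 cultures of vegetative, haploid *Saccharomyces cerevisiae* cells that were stopped in the mitotic cycle in 5 different ways. The members, which make up 10 of 5716 yeast probe sets on the array, were *IME1*, *IME2*, *RIM4*, *NDT80*, *REC104*, *SPO11*, *HOP1*, *DMC1*, *REC8* and *SPO13*, each measured by 1 probe set. The set was chosen by function, and it was proposed because *REC104*, *IME1* and *RIM4* differ between strains in these same arrays, so the levels of those 3 genes are given as a description without a test, and tests were run on the other 7. The study asked how a network of transcription factors behaves when checkpoints hold the cell cycle. G1 cells were collected by elutriation, which sorts by size, and RNA was hybridised to 160 Affymetrix Yeast 2.0 arrays.

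All strains were labelled as MATa in a BF264-15DU background, and a culture was the replicate. The *cdc20* strain (2 cultures; bar1, cdc20::LEU2 with Pgall-CDC20::ADE2, and the tubulin marker CFP-TUB1::URA3) carries *CDC20*, the activator of anaphase, only under a galactose promoter and stopped in metaphase after the move to dextrose. The *cdc8* strain (cdc8-ts; 2 cultures), with its thymidylate kinase inactivated at 30 °C in dextrose, stopped at the DNA replication checkpoint. It was the only strain whose label names no bar1 allele, although the strain list of the methods gives none for *cse4-353* cells either. The *cse4-353* strain (2 cultures; bar1, Pgal-cse4-353::TRP1 and again CFP-TUB1::URA3), in which galactose drives a mutant centromeric histone, stopped at the spindle assembly checkpoint and was the only one kept in galactose, so medium and allele cannot be told apart in its comparisons. The *cdc8 cdc20* strain (1 culture) joined cdc8ts to the alleles of the *cdc20* strain, and the *rad53-1 cdc8 cdc20* strain (2 cultures) added rad53-1, a mutant allele of the checkpoint kinase gene *RAD53*. Cells of both were also put into dextrose after collection, and for the former 30 °C is given. No move from galactose is described for *cdc8* cells. Such a move and the alleles therefore cannot be told apart where *cdc8* and *cdc20* cells are compared. Cultures were sampled from 40 to 300 min and from 20 to 360 min (*cdc20*), 30 to 260 min (*cdc8*), 90 to 345 min (*cse4-353*) and 18 to 360 min (both others), so the starts lay at different times after collection.

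Meiosis in yeast is normally entered by diploid cells that are starved of nitrogen and lack a fermentable sugar. Ime1 is the master activator of entry, the kinase Ime2 acts beside and after it, and the RNA-binding protein Rim4 controls translation of meiotic messages. Spo11 makes the double-strand breaks of recombination with partners that include Rec104, Hop1 builds the chromosome axis, Dmc1 is the meiotic strand-exchange protein and Rec8 the meiotic cohesin. Ndt80 then switches on the genes of the divisions and of spore formation, and Spo13 sets the pattern of the first division. In growing haploid cells these genes are repressed, through Ume6 and, for *IME1*, through Rme1.

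The alleles could be read in part from the arrays. *CSE4*, overexpressed by design, had median intensities of 22273 and 22028 in the *cse4-353* cultures, and 301 to 454 in the other 7. *BAR1*, which encodes a pheromone protease of MATa cells, had medians of 2772 and 2638 in *cdc8* cells and 75.7 to 170.2 in the strains labelled bar1. *CDC20* had medians of 477 and 479 in *cdc20* cells against 240 and 254 in *cdc8* cells, so its transcript does not check the label, and transcripts of *CDC8* and *RAD53* do not show whether their products work. Median levels of 6 MATa genes in arrest lay between 11.2 and 13.1 on the log2 scale in every culture. Those of 4 MATalpha genes lay between 7.52 and 8.26, and those of 6 haploid genes between 9.64 and 10.50. Single genes departed from these medians. *SAG1*, a MATalpha gene, was at 9.73 to 10.92, and in *cdc20* cells (10.60 and 10.92) it exceeded the MATa gene *AGA2* (10.22 and 10.15). *BAR1* was at 6.14 to 7.44 in the strains labelled bar1. Medians of 13 genes of carbon source use were 12.59 and 12.97 in *cse4-353* cells and 7.93 to 8.78 elsewhere. *HXK1* of this list departed from that, at 14.13 and 14.12 in *cdc8* against 14.59 and 14.14 in *cse4-353* cells. It was at 13.59 in *cdc8 cdc20*, 12.02 and 12.43 in *rad53-1 cdc8 cdc20* and 10.06 and 10.12 in *cdc20* cultures. At the start *GAL1* was at 11.68 and 11.94 in *cdc20*, 10.91 in *cdc8 cdc20* and 11.52 and 11.09 in *rad53-1 cdc8 cdc20* cultures. In *cdc8* cells it was at 8.14 and 8.23. *GAL2*, *GAL7* and *GAL10* were likewise higher in *cdc20* than in *cdc8* cells, and *GAL3* was lower (7.54 and 7.56 against 8.25 and 8.39). The part of the medium in the levels of the members was not tested. Array medians over yeast probe sets ran from 1020 to 1284.

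The members sat near the bottom of the array. Averaged over the 160 arrays, *SPO11* was at percentile 4.01 of yeast probe sets, and *REC104* was the brightest at 18.2. None of the 10 passed a filter at percentile 20. Changes are therefore read beside the median of the dimmest 1143 probe sets. In RNA from whole cultures, more cells with a transcript and more transcript per cell cannot be told apart. Some lows of different members fell on the same array. In *cdc8* culture 1 the 70 min array was lowest for *IME1*, *IME2*, *RIM4*, *REC104*, *HOP1*, *NDT80* and *DMC1*. In culture 2 that of 90 min was lowest for *IME1*, *RIM4*, *REC8*, *HOP1* and *DMC1*. The 150 min array of *cse4-353* culture 1 and the 126 min array of the *cdc8 cdc20* culture were also lowest for several members. The cause was not tested.

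*REC104*, whose protein is one of the partners of Spo11 in break formation, was flat and dim in 4 strains and rose far above that in *rad53-1 cdc8 cdc20* cells. Its intensities over time (lowest, median and highest array) were 229, 319 and 374 in *cdc20* culture 1 and 256, 314 and 494 in culture 2. In *cdc8* cells they were 144, 182 and 217 in culture 1 and 170.3, 206 and 256 in culture 2. In *cse4-353* cells they were 96.4, 253 and 305 in culture 1 and 135, 169.8 and 241 in culture 2, and in the *cdc8 cdc20* culture 252, 307 and 329. No array of these 7 cultures passed 494.

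With rad53-1 present *REC104* began within that range, at 291 and 269 at 18 min. It reached 716 and 690 at 54 min, 2386 and 2333 at 90 min and 7098 and 5327 at 126 min. The highest value came at 180 min in both cultures, 9563 and 8609, which was 22.2 and 19.4 times the mean of the first 3 time points. The signal then fell to 3710 and 4654 at 270 min and to 2029 and 2249 at 360 min, still 4.71 and 5.07 times the start. From 54 min on, every array of this strain lay above all arrays of the others.

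Levels in arrest were taken as the mean of log2(intensity + 1) over 5 or 6 late arrays of a culture, and changes were set against the mean of the first 3 shared time points. The arrest level of *REC104* was 12.57 ± 0.15 (SD, n = 2) in *rad53-1 cdc8 cdc20* cells. It was 8.18 ± 0.002 (SD, n = 2) in *cdc20* cells and 8.12 in the single *cdc8 cdc20* culture. The *cse4-353* strain had 7.87 ± 0.21 (SD, n = 2), and 7.65 ± 0.16 (SD, n = 2) was measured in *cdc8* cells. The *cse4-353* and *cdc8* cultures overlapped, and their difference, 0.22, turned to −0.15 with quantile normalization, as did the *cse4-353* change from 0.38 to −0.20. The *cdc8 cdc20* culture lay just below both *cdc20* cultures. The level with rad53-1 was 4.45 log2 units above the *cdc8 cdc20* culture (21.8-fold) and 4.39 above *cdc20* cells, and over the last 5 time points the differences were 3.07 and 3.26. The genes on either side moved far less, as *LIN1* changed by 0.30 and 0.46 and *KEL1* by 0.25 and 0.34 between start and arrest in the *rad53-1 cdc8 cdc20* cultures, where *REC104* changed by 3.71 and 3.88.

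**Figure D1:**
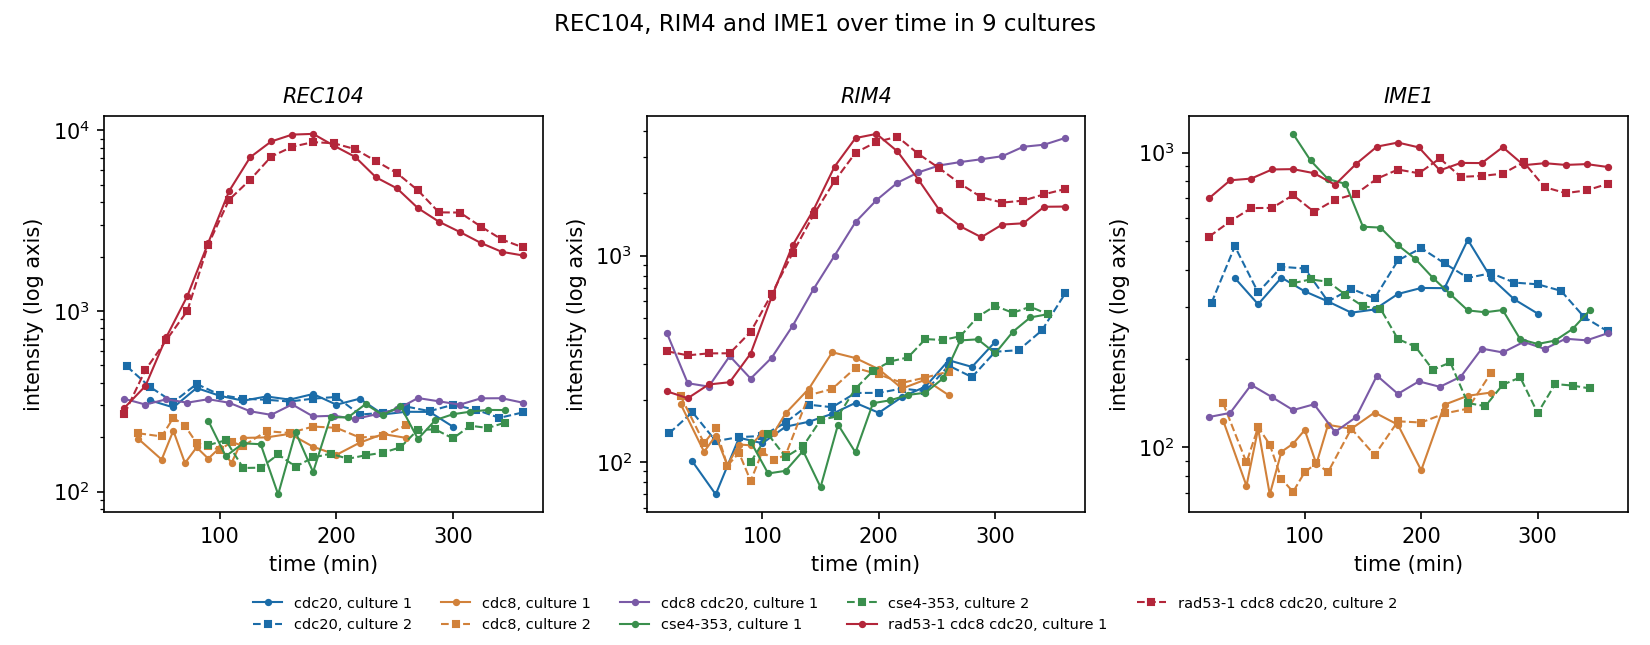
Intensity (log axis) against time in min for *REC104*, *RIM4* and *IME1* in 9 cultures, with strains by colour, culture 1 as solid lines with circles and culture 2 as dashed lines with squares. *REC104* leaves the common band in the 2 *rad53-1 cdc8 cdc20* cultures, with a peak at 180 min; *RIM4* rises in those and in the *cdc8 cdc20* culture; *IME1* falls in the 2 *cse4-353* cultures.

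*RIM4*, the translational regulator, rose in all 5 strains, by very different amounts and with different shapes. In *cdc20* cells it went from 101 and 174 at 40 min to 383 at 300 min in culture 1 and 655 at 360 min in culture 2. In *cse4-353* cells it went from 126 and 100.01 at 90 min to 520 in both cultures at 345 min. In *cdc8* cells it dropped from 190 and 208 at 30 min to 96.6 and 81.0, and then peaked at 340 (160 min) and 286 (180 min). These 3 strains stayed within a common low range.

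The *cdc8 cdc20* culture went well above both single mutants for this gene. *RIM4* fell from 422 at 18 min to 232 at 54 min, passed 998 at 162 min and 2253 at 216 min, and was still rising at 360 min, when it read 3711. The rise in *rad53-1 cdc8 cdc20* cells was similar in height and came as a wave. *RIM4* was 220 and 344 at 18 min, peaked at 3884 at 198 min in culture 1 and 3762 at 216 min in culture 2, and dropped to 1227 at 288 min and 1805 at 306 min before reaching 1727 and 2099 at 360 min.

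Its arrest level was 11.37 ± 0.27 (SD, n = 2) in *rad53-1 cdc8 cdc20* cells and 11.24 in the *cdc8 cdc20* culture, which lay between those 2 cultures. It was 8.75 ± 0.27 (SD, n = 2) in *cse4-353*, 8.03 ± 0.04 (SD, n = 2) in *cdc8* and 7.91 ± 0.02 (SD, n = 2) in *cdc20* cells. The difference of *rad53-1 cdc8 cdc20* from *cdc8 cdc20* was 0.13 in this window and −0.95 over the last 5 time points, where the wave had passed. That of *cdc8* from *cdc20* cells, 0.12, likewise turned to −0.34. Changes from start to arrest were 3.27 ± 0.17 in *rad53-1 cdc8 cdc20*, 3.07 in *cdc8 cdc20*, 1.01 ± 0.37 in *cdc20* and 0.80 ± 0.05 in *cdc8* cells (SD over 2 cultures where given), and 1.90 and 2.10 in the *cse4-353* cultures. The neighbours *SNF6* and *NPR3* changed by 0.55 and 0.46 and by 0.08 and −0.09 in the *rad53-1 cdc8 cdc20* cultures.

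*IME1*, the master activator, differed between strains already at the start, and of the 5 strains it fell only in *cse4-353*. In *cse4-353* cells it dropped from 1158 at 90 min to 224 at 300 min in culture 1, and from 361 to 131 over the same time in culture 2. The cultures already differed at the start, at 9.91 and 8.52 on the log2 scale, and fell by 1.93 and by 1.24. In *cdc20* cells intensities ran from 284 to 506 in culture 1 and from 248 to 481 in culture 2, without a trend, and the log2 changes were 0.09 and −0.01. The lowest levels were in *cdc8* cells, at 69.2 to 153 and 70.6 to 179, and the *cdc8 cdc20* culture went from 113 at 126 min to 244 at 360 min.

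Cells of the *rad53-1 cdc8 cdc20* strain had *IME1* at 701 and 519 by 18 min, and at most at 1082 (180 min) and 956 (216 min). Arrest levels were 9.83 ± 0.11 in this strain, 8.60 ± 0.08 in *cdc20*, 7.63 ± 0.50 in *cse4-353*, 7.53 in *cdc8 cdc20* and 7.05 ± 0.08 in *cdc8* cells (SD, n = 2 where given). The *cdc8 cdc20* culture lay between the 2 *cse4-353* cultures. The difference of *cse4-353* from *cdc8* cells was 0.58 as deposited and 0.04 after quantile normalization. Unlike *REC104*, *IME1* changed little with time in *rad53-1 cdc8 cdc20* cells (0.31 and 0.57), and its start levels of 9.60 and 9.19 were already far above the 7.13 of the *cdc8 cdc20* culture, where the arrest difference was 2.30.

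The genes around *IME1* on chromosome X were also higher in *rad53-1 cdc8 cdc20* cells. Over the 20 measured genes on each side the median arrest difference was 0.60 from *cdc20* and 0.62 from *cdc8 cdc20* cells, where the medians over all probe sets were −0.07 and 0.03, and 34 and 32 of the 40 were above 0. In both *rad53-1 cdc8 cdc20* cultures 21 of the 40 exceeded all 7 other cultures, against 15.5% of all probe sets. The median was 0.28 and 0.35 for the stretch of 21 to 60 genes to the left, 0.70 and 0.85 for the nearest 20 on the left, 0.20 and 0.29 for the nearest 20 on the right and 0.46 and 0.36 for the remaining 35. Chromosome III, which holds no member, had medians of 0.21 and 0.34 in these comparisons, against 0.10 and 0.19 for all of chromosome X and −0.17 to 0.02 and −0.06 to 0.08 for the other chromosomes. The windows around the other 9 members had medians between −0.31 and 0.13 in these comparisons, that around *IME2* on the same chromosome included. These windows were drawn after the values had been seen. *IME1* itself differed by 1.23 from *cdc20* and 2.30 from *cdc8 cdc20* cells, more than the median of its neighbours. Against *cdc20* cells some of the 40 neighbours differed by more than *IME1*, among them *YJR079W* (1.79), *CDC11* (1.64) and *BNA2* (1.58). Against the single *cdc8 cdc20* culture none of the 40 did, and the highest was *JJJ3* at 2.03. The part of this regional difference in the *IME1* level was not tested.

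**Figure D2:**
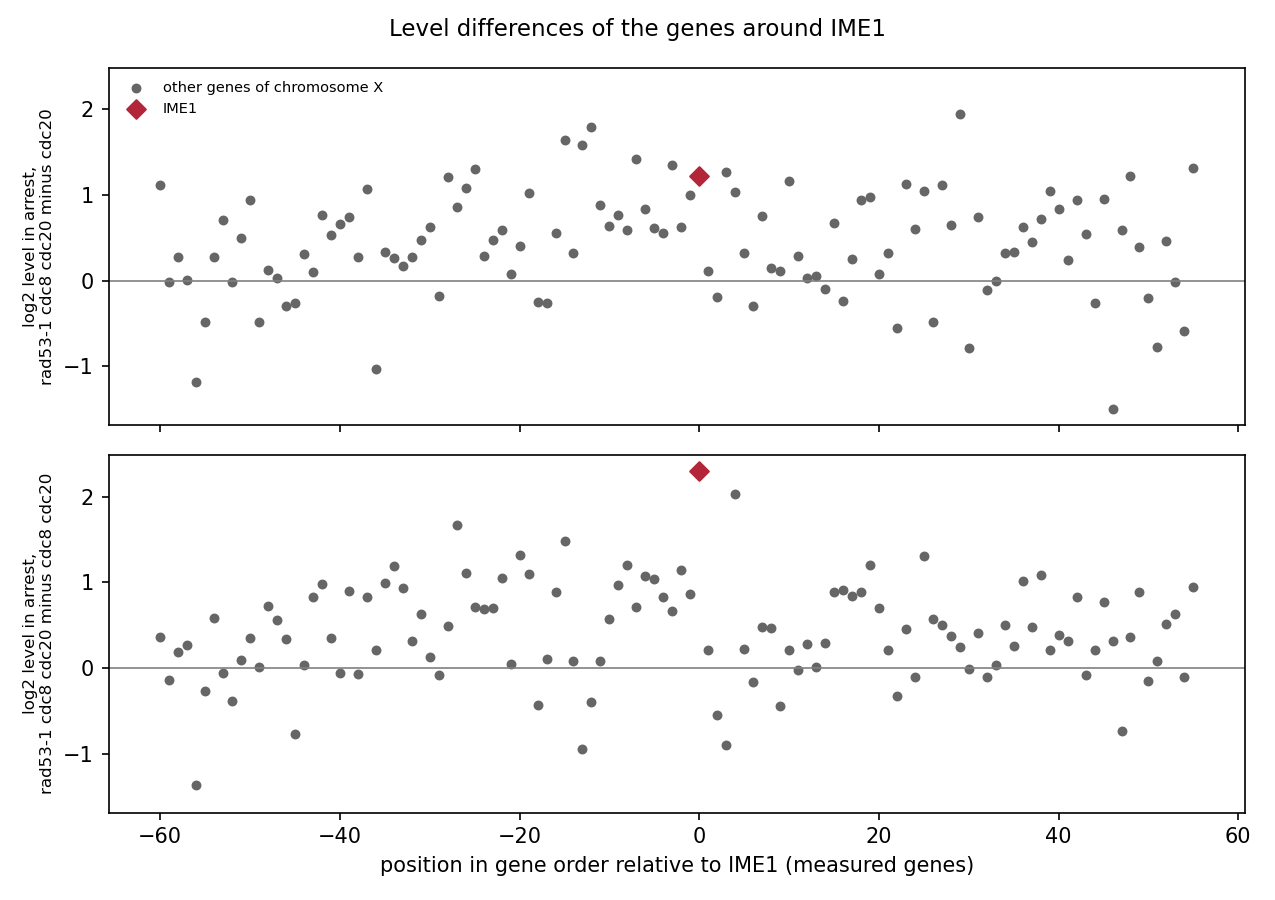
Difference in log2 arrest level between *rad53-1 cdc8 cdc20* cells and *cdc20* cells (top) or the *cdc8 cdc20* culture (bottom) for the measured genes of chromosome X around *IME1*, in gene order. Each grey point is a gene and the red diamond is *IME1*, at 1.23 and 2.30; of the 20 genes on either side, 34 and 32 of 40 are above 0.

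Named genes with the courses most like these 3 over the 160 arrays, by Pearson correlation of log2 intensities, were found for each. The arrays share strains and cultures, so the values are a description. For *REC104* they were *STE50*, an adaptor of MAP kinase pathways (r = 0.88), *DMA2*, a ubiquitin ligase of mitotic control (r = 0.88), and *PRM3*, needed for nuclear fusion in mating (r = 0.87). For *IME1* they were *YJR084W* (r = 0.86), *ACF4* (r = 0.86) and *MAK32* (r = 0.84), of which the first 2 lie on chromosome X, as *IME1* does. For *RIM4* they were *PAU3* (r = 0.87), *YHR007C-A* (r = 0.87) and the proteasome subunit gene *PRE5* (r = 0.86). *MAK32*, *STE50* and *PAU3* lie on chromosome III, and the part of its higher level in these likenesses was not tested.

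The other 7 members were tested with limma, a linear model fitted to the 9 cultures for all 5716 probe sets at once, and a gene was called at an adjusted p of at most 0.05. Of these the kinase gene *IME2* came closest to the courses of *RIM4* and *REC104*, with r = 0.82 and 0.78 over the arrays. In *rad53-1 cdc8 cdc20* cells it read 445 and 440 at 18 min and 290 and 329 at 36 min. It then went to 862 at 180 min in culture 1 and 763 at 198 min in culture 2, and back to 427 and 469 at 360 min. In the *cdc8 cdc20* culture it fell from 427 at 18 min to 240 at 126 min and rose to 505 at 360 min without a peak. Its change from start to arrest there was 0.36. Elsewhere it stayed between 141 and 469, apart from the first array of *cdc20* culture 2, which read 923. The rise from start to arrest in *rad53-1 cdc8 cdc20* cells was 0.77 ± 0.14 (SE; 1.71-fold; adjusted p = 0.00229 by limma), and missed the threshold over the last 5 time points, where the wave was over (0.39, adjusted p = 0.0787). In arrest *IME2* stood 1.07 ± 0.15 (SE) above *cdc20* cells (2.10-fold; adjusted p = 0.00189) and 0.42 ± 0.18 (SE) above the *cdc8 cdc20* culture (adjusted p = 0.132; 0.0296 without either *cse4-353* culture). In *cdc8* cells it fell by 0.41 ± 0.14 (SE; adjusted p = 0.0455), a call lost without any 1 of 6 cultures, those of the *cdc20*, *cdc8* and *rad53-1 cdc8 cdc20* strains (adjusted p from 0.0563 to 0.348).

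*NDT80*, which encodes the factor that opens the later meiotic programme, moved in opposite directions in the 2 strains that stop in metaphase. In *cse4-353* cells it rose from 324 and 422 at 90 min to 1124 and 1151 at 285 min and to 1246 and 1915 at 345 min. In *cdc20* cells it fell from 680 and 695 at 40 min to 254 and 211 at 120 min. It stayed near there, at 162 at 300 min and 215 at 360 min. At 20 min, before the start window, culture 2 read 527. The rise was 1.78 ± 0.11 (SE; 3.43-fold; adjusted p = 1.36e-05 by limma) and the fall 1.48 on the log2 scale (SE 0.11; 2.79-fold; adjusted p = 3.35e-05). Values did not overlap in arrest, where *cse4-353* cells were 2.47 ± 0.17 (SE) above *cdc20* cells (5.53-fold; adjusted p = 8.41e-05) and 1.71 ± 0.17 (SE) above *cdc8* cells (3.28-fold; adjusted p = 0.000435).

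The other strains kept *NDT80* between 198 and 408. It was 0.75 ± 0.17 (SE) higher in *cdc8* than in *cdc20* arrest (adjusted p = 0.00876; 0.0502 without *cdc20* culture 1 and 0.0532 without *cdc8* culture 2). It was 0.65 ± 0.17 (SE) higher in *rad53-1 cdc8 cdc20* than in *cdc20* cells (adjusted p = 0.0196; 0.109 without *cdc20* culture 1 and 0.0892 without either culture of the triple mutant). Its rise in *cdc8* cells was small, 0.40 ± 0.11 (SE; adjusted p = 0.0171), and was not called after quantile normalization (0.22, adjusted p = 0.0922) or without culture 1 or 2 of that strain (adjusted p = 0.114 and 0.171).

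*HOP1*, the axis gene, rose in *cdc8*, *cse4-353* and *cdc8 cdc20* cells. In *cdc8* cells it read 288 and 355 at 30 min and first fell. It then climbed from 152 at 70 min to 411 at 160 min in culture 1, and from 171 at 90 min to 476 at 200 min in culture 2. In *cse4-353* cells it rose from 167 and 123 at 90 min to 612 and 550 at 345 min, and in the *cdc8 cdc20* culture from 150 at 36 min to 509 at 306 min. In *cdc20* cells it stayed between 95.1 and 241, and in *rad53-1 cdc8 cdc20* cells between 96.6 and 244.6.

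The rise of *HOP1* was 0.71 ± 0.08 in *cdc8* (SE; adjusted p = 0.000401 by limma), 1.35 ± 0.08 in *cse4-353* (adjusted p = 1.43e-05) and 1.30 ± 0.12 in *cdc8 cdc20* cells (adjusted p = 9.43e-05). In *cdc20* and *rad53-1 cdc8 cdc20* cells the changes were 0.15 and −0.15 (adjusted p = 0.156 and 0.163), and over the last 5 time points the *cdc20* change was called (0.28, adjusted p = 0.0346). In arrest *rad53-1 cdc8 cdc20* cells were lower than the *cdc8 cdc20* culture, with a difference of −1.47 ± 0.15 (SE; 2.77-fold; adjusted p = 0.00142). *HOP1* was 1.35 ± 0.12 (SE) higher in *cdc8* than in *cdc20* cells (2.55-fold; adjusted p = 0.000194), and 1.41 ± 0.12 (SE) higher in *cse4-353* than in *cdc20* cells (2.66-fold; adjusted p = 0.000219). Between the *cdc8 cdc20* strain and that with rad53-1, *HOP1* was thus lower where *REC104* was higher, and their courses had r = −0.40 over the arrays. The arrays share strains and cultures, so this r is a description. In *cdc20* arrest both were low, *HOP1* at 7.29 and *REC104* at 8.18, so the pattern did not hold in every strain.

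*DMC1*, which encodes the meiotic strand-exchange protein, rose in *cse4-353*, *rad53-1 cdc8 cdc20* and *cdc8 cdc20* cells. In *cse4-353* cells it went from 145 and 216 at 90 min to 598 and 708 at 345 min, a rise of 1.72 ± 0.16 (SE; 3.30-fold; adjusted p = 8.48e-05 by limma). The *cse4-353* cultures differed at the start (6.82 and 7.79 on the log2 scale) more than in arrest (8.93 and 9.13). In *rad53-1 cdc8 cdc20* cells it went from 189 and 174 at 18 min to 540 and 535 at 360 min (1.38 ± 0.16, SE; 2.61-fold; adjusted p = 0.000258), most of it between 90 and 144 min. In the *cdc8 cdc20* culture it rose from 144 to 408 (0.92 ± 0.23, SE; adjusted p = 0.0111).

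In *cdc8* cells *DMC1* dipped from 199 and 283 at 30 min to 67.0 and 71.0 and came back to 170 and 217 at 260 min. The arrays of these lows were also the lowest for *IME1*, *RIM4* and *HOP1*. *DMC1* was lower in *cdc8* than in *cdc20* arrest, with a difference of −0.82 ± 0.15 (SE; 1.76-fold; adjusted p = 0.00349). It was 1.43 ± 0.15 (SE) higher in *cse4-353* than in *cdc8* cells (2.70-fold; adjusted p = 0.000505). The difference of *cse4-353* from *cdc20* cells, 0.61 ± 0.15 (SE; adjusted p = 0.0135), was not called without *cdc20* culture 1 (0.48, adjusted p = 0.0894) or in a fit of the 2 strains alone (adjusted p = 0.0623). That of *rad53-1 cdc8 cdc20* from *cdc8 cdc20* cells, 0.73 ± 0.18 (SE; adjusted p = 0.0252), was not called without either culture of the former (adjusted p = 0.0908 and 0.101) or over the last 5 time points (0.51, adjusted p = 0.211).

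**Figure D3:**
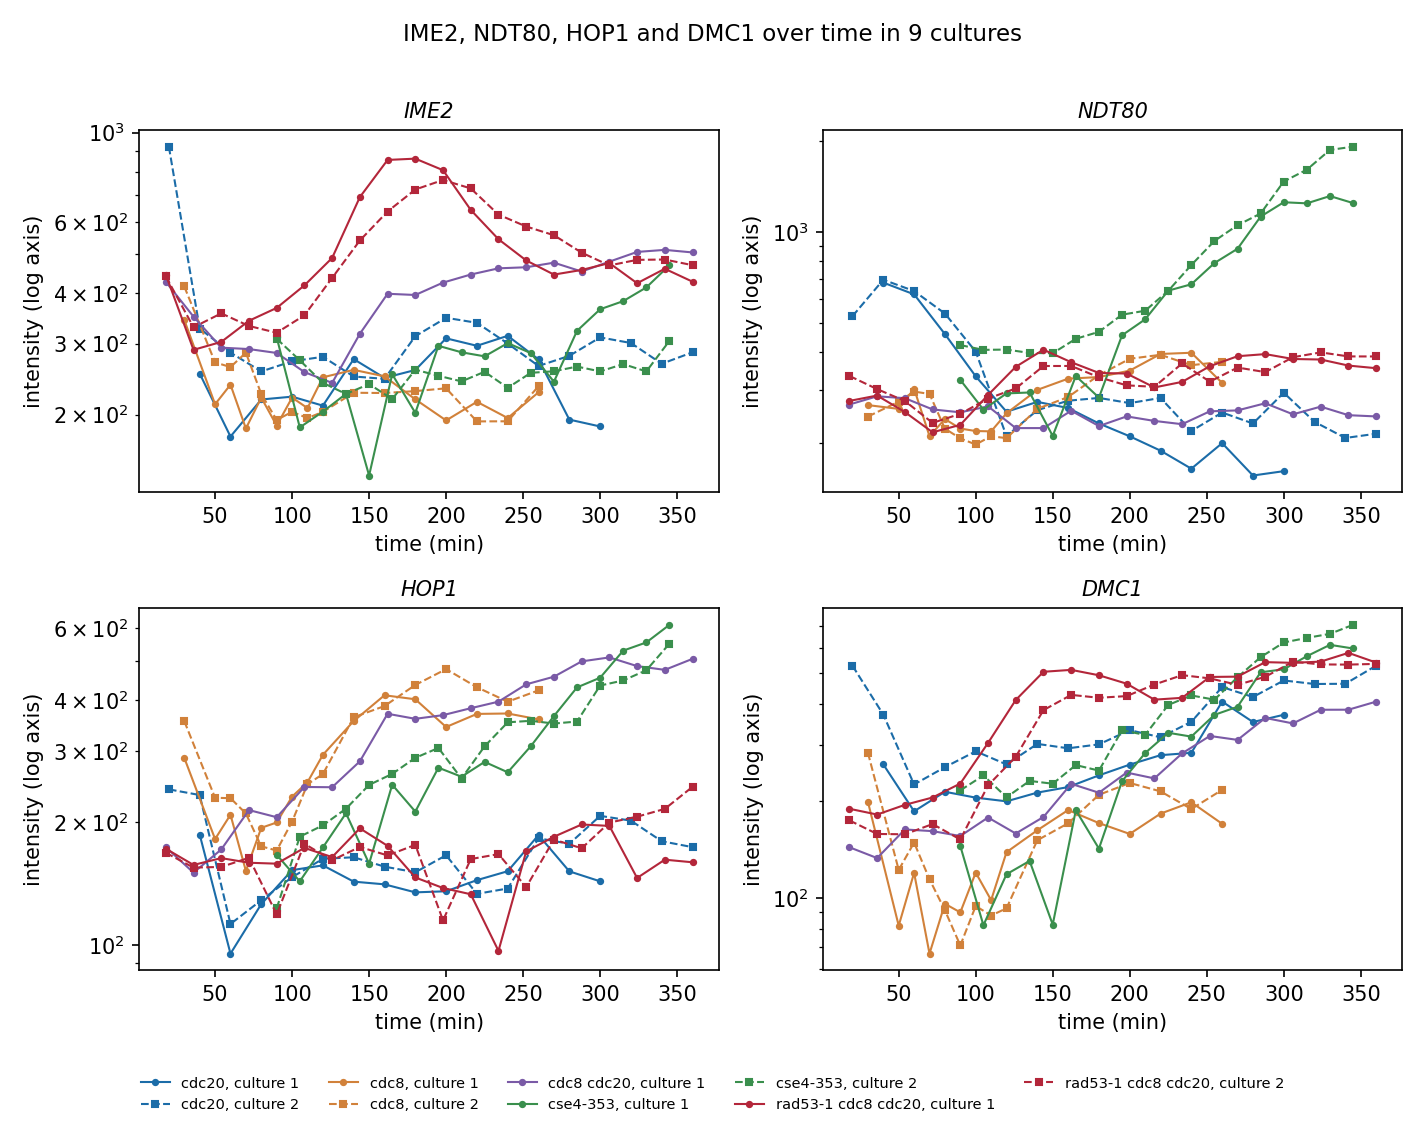
Intensity (log axis) against time in min for *IME2*, *NDT80*, *HOP1* and *DMC1* in 9 cultures, with strains by colour, culture 1 as solid lines with circles and culture 2 as dashed lines with squares. *IME2* peaks at 862 and 763 in *rad53-1 cdc8 cdc20* cells, *NDT80* reaches 1314 and 1915 in *cse4-353* cells, and *HOP1* stays at or below 244.6 in *rad53-1 cdc8 cdc20* and *cdc20* cells.

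*SPO11*, which encodes the enzyme that cuts DNA, had 1 clear course. In *cdc20* cells it fell from 546 and 448 at 40 min to 155 and 146 at 100 min and stayed between 138 and 207 after that. The 20 min array, taken in culture 2 only and outside the start window, read 239, so *SPO11* first rose there. The fall from start to arrest was 1.00 on the log2 scale (SE 0.10; adjusted p = 8.36e-05 by limma), at −1.01 and −0.98 in the cultures, and like that of *NDT80* it came early. In the other strains *SPO11* lay between 66.5 and 228 throughout. The *cse4-353* change of 0.28 ± 0.10 (SE; adjusted p = 0.0314) turned to −0.37 (adjusted p = 0.0132) after quantile normalization, and the median of the dimmest 1143 was 0.21 there, so no direction is given for it. The call was also lost without either *cdc20* or *cdc8* culture or without *cse4-353* culture 2 (adjusted p from 0.0504 to 0.168).

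*SPO13*, the regulator of the first division, rose in *cdc20* cells by 0.85 ± 0.12 (SE, 1.80-fold, adjusted p = 0.000505 by limma). It read 137 and 199 at 40 min, 345 at 300 min in culture 1 and 515 at 360 min in culture 2. On the 20 min array of culture 2, outside the start window, *SPO13* read 306. Its *cse4-353* change was 0.65 ± 0.12 (SE; adjusted p = 0.00214), and 0.07 (adjusted p = 0.662) after quantile normalization. Its early, low peaks in *rad53-1 cdc8 cdc20* cells were 408 at 144 min and 348 at 162 min, and *SPO13* was back at 226 and 223 at 198 min, so that the windows gave a change of −0.16 (adjusted p = 0.295). In arrest it was lower there than in *cdc20* cells, with a difference of −0.86 ± 0.26 (SE; adjusted p = 0.0307), a call lost without *cdc20* culture 2 (adjusted p = 0.169) or without either *rad53-1 cdc8 cdc20* culture (adjusted p = 0.111 and 0.129).

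*REC8*, the meiotic cohesin gene, differed widely between the replicate cultures of some strains. Medians were 190 and 378 in the *cdc20* cultures, 148 and 242 in *cse4-353*, 215 and 135 in *rad53-1 cdc8 cdc20*, 118 and 105 in *cdc8* and 148 in *cdc8 cdc20* cells. The change within a culture was steadier in *cdc20* and *cse4-353* cells. Elsewhere *REC8* changed by 0.40 and 0.14 in the *cdc8* cultures and by 0.25 and −0.12 in the *rad53-1 cdc8 cdc20* cultures. It rose by 0.65 and 0.67 in the *cdc20* cultures (mean 0.66 ± 0.12, SE; adjusted p = 0.0016 by limma) and by 0.85 and 1.13 in *cse4-353* cells (mean 0.99 ± 0.12, SE; adjusted p = 0.000235). Its level was lower in *cdc8* than in *cdc20* arrest, −1.25 ± 0.41 (SE; adjusted p = 0.0353), which was not called without *cdc20* culture 2 (−0.82, adjusted p = 0.203), without *cdc8* culture 1 or 2 (adjusted p = 0.103 and 0.134) or after quantile normalization (−0.90, adjusted p = 0.0941).

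**Figure D4:**
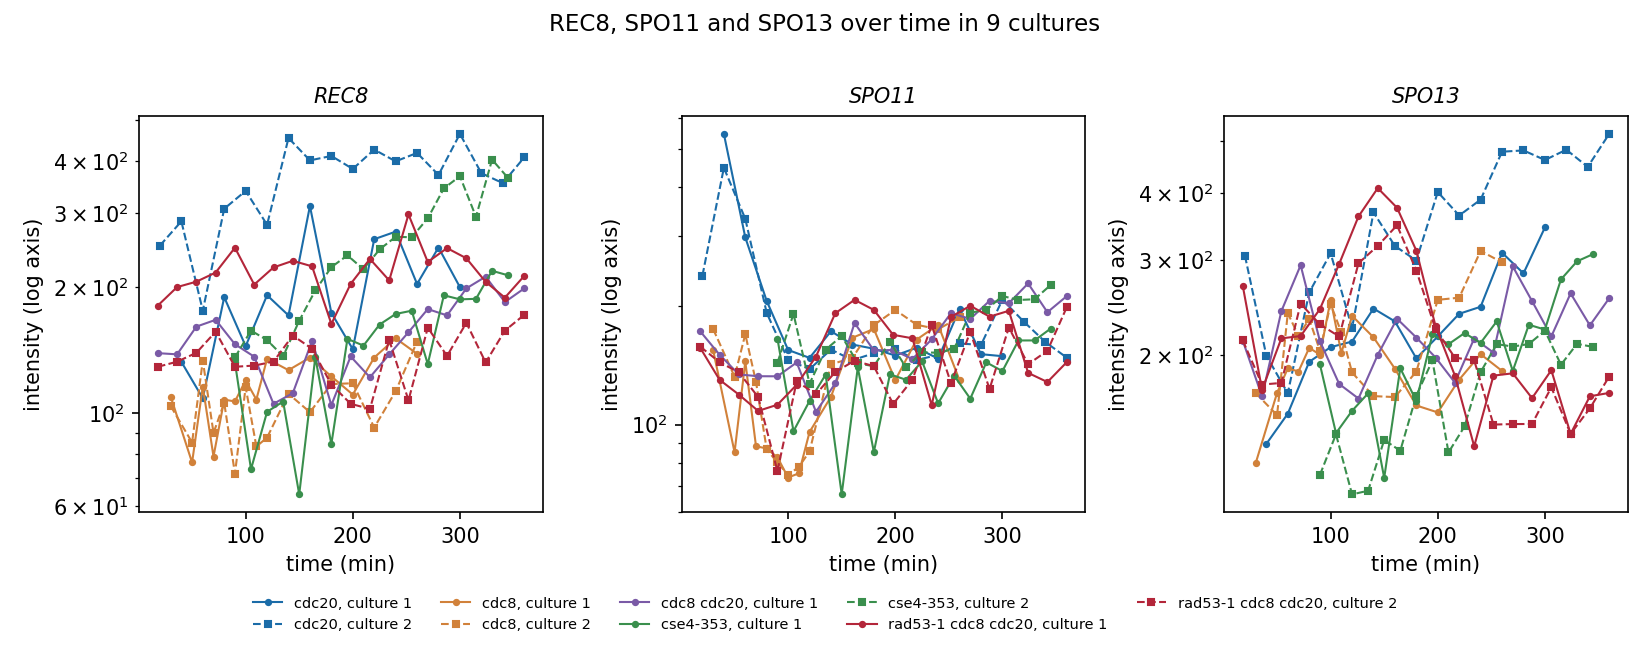
Intensity (log axis) against time in min for *REC8*, *SPO11* and *SPO13* in 9 cultures, with strains by colour, culture 1 as solid lines with circles and culture 2 as dashed lines with squares. *SPO11* falls from 546 and 448 in *cdc20* cells, *SPO13* makes a low peak of 408 and 348 in *rad53-1 cdc8 cdc20* cells, and the 2 *cdc20* cultures differ for *REC8*.

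Across the 7 tested genes, the *cse4-353* arrest held the most rises. From start to arrest 6 of the 7 were higher and 0 lower there (*IME2* was the exception), where 29.1% of all probe sets were called higher and 32.9% lower. With quantile normalization it was 4 higher and 1 lower. In *cdc20* cells 3 were higher (*REC8*, *SPO13*, *DMC1*) and 2 lower (*SPO11*, *NDT80*), against 31.4% and 31.1% of all probe sets. With quantile normalization it was 2 and 2. In *cdc20* culture 2 *DMC1* read 528 at 20 min, before the start window, and 528 at 360 min. The *DMC1* call there, 0.47 ± 0.16 (SE; adjusted p = 0.035 by limma), was lost without any 1 of the 6 *cdc20*, *cdc8* and *rad53-1 cdc8 cdc20* cultures (adjusted p from 0.0519 to 0.21) and after quantile normalization (adjusted p = 0.108). In *cdc8* cells 2 were higher and 1 lower (22.6% and 23.8% of all; 1 and 1 with quantile normalization), in *cdc8 cdc20* cells 2 higher and 0 lower (24.3% and 28.2%), and in *rad53-1 cdc8 cdc20* cells 2 higher and 0 lower (26.5% and 30.9%). The median change of the dimmest 1143 was 0.21 in *cse4-353*, 0.12 in *cdc20*, −0.11 in *cdc8*, −0.25 in *cdc8 cdc20* and −0.17 in *rad53-1 cdc8 cdc20* cells.

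Between arrests, *cdc8* cells had 2 of the 7 higher than *cdc20* cells (19.1% of all probe sets) and 3 lower (33.0%), and 3 and 1 with quantile normalization. One of the latter was *IME2*, at −0.44 ± 0.15 (SE; adjusted p = 0.0393 by limma), a call lost without any 1 of the same 6 cultures (adjusted p from 0.0586 to 0.186) and after quantile normalization (adjusted p = 0.314). *SPO13* was not called (−0.62, adjusted p = 0.0758), and was called without *cdc20* culture 1 (−0.98, adjusted p = 0.0253). In *cse4-353* against *cdc20* cells 3 were higher (17.7%) and 0 lower (27.1%; 3 and 1 with quantile normalization), and in *rad53-1 cdc8 cdc20* against *cdc20* cells 3 higher (18.6%) and 1 lower (24.2%). Of these, *DMC1* in the triple mutant was at the threshold (0.43 ± 0.15, SE; adjusted p = 0.0489), and the call was lost without any 1 of those 6 cultures (adjusted p from 0.0667 to 0.244). These 3 comparisons share the *cdc20* cultures. The median difference of the dimmest 1143 was −0.31 for *cdc8*, −0.10 for *cse4-353* and −0.25 for *rad53-1 cdc8 cdc20* against *cdc20* cells.

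In *cse4-353* against *cdc8* cells 3 were higher (19.0%) and 0 lower (17.3%; 2 and 1 with quantile normalization), 1 of them *IME2* at 0.46 ± 0.15 (SE; adjusted p = 0.046 by limma). That call was lost without any 1 of 7 cultures (all but *cse4-353* culture 2 and the *cdc8 cdc20* culture; adjusted p from 0.0701 to 0.189). In *rad53-1 cdc8 cdc20* against *cdc8 cdc20* cells 1 was higher, *DMC1* (12.6%), and 1 lower, *HOP1* (11.7%). The single *cdc8 cdc20* culture is assumed in the fit to vary like the others. The median difference of the dimmest 1143 was 0.24 for *cse4-353* against *cdc8* cells and 0.05 for *rad53-1 cdc8 cdc20* against *cdc8 cdc20* cells.

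**Figure D5:**
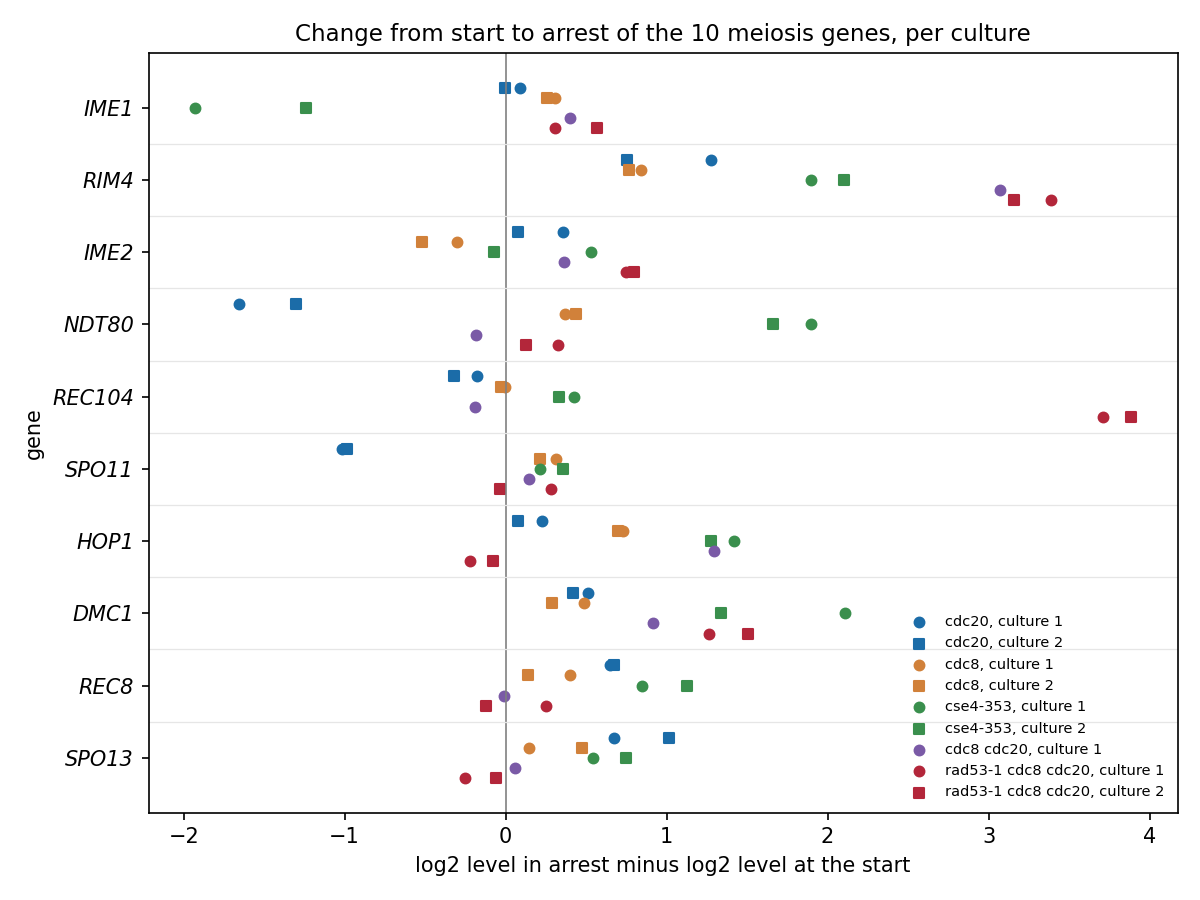
Change in log2 level from start to arrest of the 10 genes (rows) in each of 9 cultures, with strains by colour and circles and squares for cultures 1 and 2. *REC104* changes by 3.71 and 3.88 in *rad53-1 cdc8 cdc20* cells. *NDT80* falls in *cdc20* cells and rises in *cse4-353* cells, whose start lies at later times.

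The change itself was also tested between strains. Between *cdc8* and *cdc20* cells it differed for 5 of the 7 (44.2% of all probe sets), between *cse4-353* and *cdc20* cells for 4 (46.8%), and between *rad53-1 cdc8 cdc20* and *cdc8 cdc20* cells for 1, *HOP1* (31.2%). The *NDT80* change was 3.26 ± 0.15 (SE) higher in *cse4-353* than in *cdc20* cells (adjusted p = 2.84e-05 by limma). The start was 90 to 120 min in *cse4-353* and 40 to 80 min in *cdc20* cells, so unlike times are compared. The median difference of the dimmest 1143 was −0.16 for *cdc8* and 0.10 for *cse4-353* against *cdc20* cells. It was 0.02 for *rad53-1 cdc8 cdc20* against *cdc8 cdc20* cells.

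The rest of the meiotic pathway was taken from 3 lists of genes. Among 18 regulators of entry, *RIM11*, a kinase that acts on Ume6 and Ime1, rose in all 5 strains, by 1.30 ± 0.08 in *rad53-1 cdc8 cdc20* (SE; adjusted p = 1.6e-05 by limma), 1.05 in *cdc20*, 1.03 in *cdc8 cdc20*, 0.90 in *cse4-353* and 0.23 in *cdc8* cells. *RME1*, the haploid repressor of *IME1*, rose in the *cdc8 cdc20* culture (1.83 ± 0.10, SE; adjusted p = 2.37e-05) and in *cse4-353* cells (1.23 ± 0.07, SE; adjusted p = 1.28e-05). *RME1* fell by 0.26 in *rad53-1 cdc8 cdc20* and by 0.29 in *cdc20* cells. In *cdc8* cells it was already at 9.97 and 10.12 at the start. With 10.14 and 10.24 in arrest, these cells had more *RME1* than any other culture, the next being *cdc8 cdc20* at 9.81. *SOK2*, a repressor of *IME1*, fell by 1.14 in *rad53-1 cdc8 cdc20*, 0.99 in *cdc8 cdc20*, 0.93 in *cse4-353* and 0.81 in *cdc8* cells. In all, 3 of the 18 rose and 6 fell in *cse4-353* (29.1% and 32.9% of all probe sets), in *cdc8 cdc20* (24.3% and 28.2%) and in *rad53-1 cdc8 cdc20* cells (26.5% and 30.9%). In *cdc20* cells 4 rose and 7 fell (31.4% and 31.1%), and in *cdc8* cells 1 rose and 7 fell (22.6% and 23.8%).

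Of 25 further genes of recombination and synapsis, 1 rose and 13 fell in *rad53-1 cdc8 cdc20* cells (26.5% and 30.9% of all probe sets; 2 and 8 with quantile normalization), and 1 rose and 10 fell in the *cdc8 cdc20* culture (24.3% and 28.2%). The riser in the former was *MAM1*, of the monopolin complex of meiosis I (0.91 ± 0.13, SE; adjusted p = 0.000524 by limma). Those that fell most were *MSH5*, of a complex that stabilises crossovers (−0.87), *MER1*, a splicing factor for meiotic messages (−0.85), and *NDJ1*, a telomere protein (−0.77). The median change of the list was −0.38, against −0.17 in the dimmest 1143.

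In *cse4-353* cells 14 of these 25 rose and 2 fell (29.1% and 32.9% of all), led by *MAM1* (1.39 ± 0.13, SE; adjusted p = 6.98e-05 by limma), *HOP2*, a partner of Dmc1 (1.27 ± 0.12, SE; adjusted p = 7.62e-05), and *SPO22*, of the synapsis initiation group (0.90). With quantile normalization 5 rose and 7 fell, so the balance of this list turns over with the scaling. In *cdc20* cells 8 rose and 8 fell (31.4% and 31.1%), and 2 and 10 with quantile normalization. *MSH5* fell by 1.28 and *HOP2* by 1.06 there, and *MEK1*, a kinase of the recombination checkpoint, rose by 0.89. In *cdc8* cells 3 rose and 6 fell (22.6% and 23.8%), with *SPO16* the highest (1.29). *MSH5* fell in all 5 strains.

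Of 29 genes of spore formation, most of which Ndt80 drives in meiosis, 18 rose and 3 fell in *cse4-353* cells (29.1% and 32.9% of all probe sets; 10 and 6 with quantile normalization). The largest rises were *SPS4* (1.61 ± 0.15, SE; adjusted p = 7.15e-05 by limma), *DIT1*, for the dityrosine of the spore wall (1.36), *CDA1*, a chitin deacetylase (1.20 ± 0.07, SE; adjusted p = 1.26e-05), and *OSW2* (1.15). In *cdc20* cells 14 rose and 6 fell (31.4% and 31.1%; 6 and 8 with quantile normalization), and *SPS100*, a late spore wall gene, fell by 2.16. In *cdc8* cells 8 rose and 3 fell (22.6% and 23.8%), with *SPS100* again the lowest (−2.35). In *cdc8 cdc20* cells 8 rose and 5 fell (24.3% and 28.2%), and in *rad53-1 cdc8 cdc20* cells 9 rose and 8 fell (26.5% and 30.9%), with *SPS4* (1.21), *SSP1* (1.02) and *CDA1* (0.95) at the top.

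Between arrests, 11 of the 25 recombination genes were lower and 1 higher in *cdc8* than in *cdc20* cells (33.0% and 19.1% of all probe sets), but 5 and 5 with quantile normalization. Of the spore genes, 18 of the 29 were lower in that comparison and 0 higher, with a list median of −0.72 against −0.31 in the dimmest 1143, and 8 were lower and 3 higher after quantile normalization. In *cse4-353* cells 13 were higher and 1 lower than in *cdc8* cells (19.0% and 17.3%; 3 and 2 with quantile normalization), and 6 higher and 1 lower than in *cdc20* cells (17.7% and 27.1%). The list median was 0.64 above *cdc8* cells, against 0.24 in the dimmest 1143. In *rad53-1 cdc8 cdc20* cells 8 were higher and 2 lower than in the *cdc8 cdc20* culture (12.6% and 11.7%; 4 and 2 with quantile normalization), and 3 higher and 6 lower than in *cdc20* cells (18.6% and 24.2%; 6 and 3 with quantile normalization).

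Oscillation was scored, as in the study, with a Lomb-Scargle periodogram, which fits waves of a given period to unevenly spaced values. A probe set was called where the lowest p within a period range was at most 0.5 in both cultures. The period ranges are not those of the study, that for *cdc20* cells being wider than its own, and the longest test period was shorter. By this rule 0 of the 10 members were periodic in *cdc20* cells at periods from 140 to 160 min, where 6.79% of all probe sets were. In *rad53-1 cdc8 cdc20* cells, at 90 to 150 min, 1 of 10 was called, *SPO13* (p = 0.11 and 0.415), against 19.8% of all probe sets, and its strongest test periods, 179 and 200 min, lay outside that range. With all time points, and at p of at most 0.1, 0 of 10 were called. *REC104* (p = 0.996 and 1), *RIM4* (p = 0.999 and 0.999) and *IME2* (p = 0.964 and 0.998) were not called, and their strongest test period was 200 min, the longest tried, in both cultures. The calls used the first 13 time points of each culture.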

How the data were processed

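The authors deposited linear intensities, one per probe set and array, made with dChip normalization in affy 1.32.1. They entered without further scaling. The table held 5900 probe sets, and removal of 184 controls left 5716, of which 5498 carried a gene symbol, 12 updated through RefSeq names. There were 0 identical pairs among the 160 arrays. Values were log2(intensity + 1).

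The arrest level was the mean per culture over 200 to 280 min (*cdc20*), 180 to 260 min (*cdc8*), 255 to 330 min (*cse4-353*) or 198 to 270 min (both others), and the start was the mean of the first 3 time points shared by the cultures of a strain. The last *cse4-353* array, which a title and a source name date differently, was taken as 345 min. Levels and changes were fitted over all 9 cultures with limma 3.58.1 (R 4.3.3; 4 residual degrees of freedom), with Benjamini-Hochberg adjustment over 5716 probe sets and calls at 0.05. P-values measure the spread between these cultures. Arrays give no read depth; their number limits the precision. Periodograms (Python 3.11.15, numpy 2.4.6) used linear intensities of the first 13 time points, 9 independent frequencies and test periods from 50 to 200 min. Both tests were checked on simulated data.

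Named genes were all 10 members, up to 4 called genes of largest change per pathway list and comparison, and the 3 named probe sets most correlated with *REC104*, *IME1* and *RIM4*; chromosomal neighbours, chromosome medians and further values of *RIM11*, *RME1* and *MSH5* were added after their values were seen. Members and lists were chosen with earlier results of these data known. Alternatives were quantile normalization, the last 5 time points in place of the arrest window, 32 as pseudocount, a filter on dim probe sets, a replicate block, the 2 strains alone, 2 start time points and leaving out each culture.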

Additional observations from a re-analysis of the deposited data

Results flagged for a closer look

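The changes from start to arrest of 6 members differed between strains by limma's test of the difference itself. Between *cdc8* and *cdc20* cells the *NDT80* change differed by 1.88 (adjusted p = 0.000212), that of *SPO11* by 1.26 (adjusted p = 0.000498) and that of *HOP1* by 0.56 (adjusted p = 0.0071), all higher in *cdc8* cells. Those of *IME2*, −0.63 (adjusted p = 0.0354), and of *SPO13*, −0.54 (adjusted p = 0.034), were lower. The move of *cdc20* cells from galactose to dextrose cannot be told apart from the alleles in this comparison. Between *cse4-353* and *cdc20* cells the changes of *NDT80*, 3.26 (adjusted p = 2.84e-05), *SPO11*, 1.28 (adjusted p = 0.000351), *DMC1*, 1.25 (adjusted p = 0.00356), and *HOP1*, 1.20 (adjusted p = 0.000284), were higher in *cse4-353* cells. These set unlike times side by side, since the start was 40 to 80 min in *cdc20* and 90 to 120 min in *cse4-353* cells. The *SPO11* fall in *cdc20* cells was over by 100 min. The *SPO11* change itself was −1.01 and −0.98 in the *cdc20* cultures, and on average 0.26 in *cdc8* and 0.28 in *cse4-353* cells, and the last turned to −0.37 with quantile normalization. Between *rad53-1 cdc8 cdc20* and *cdc8 cdc20* cells only *HOP1* differed of the 7 tested, by −1.44 (adjusted p = 5e-04). Groups of 2 cultures are too small for a test of outlying samples.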

How the results depend on the processing

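Of the values of the 7 tested genes under the alternatives, 808 kept direction and side of the threshold, 71 lost a call, 29 gained one and 2 reversed; of those of *REC104*, *IME1* and *RIM4*, 345 stayed within the spread of cultures, 43 moved and 2 reversed. Reversals came with quantile normalization for *REC104* (difference of *cse4-353* from *cdc8* cells −0.15; change in *cse4-353* cells −0.20) and for the *SPO11* change in *cse4-353* cells (−0.37, adjusted p = 0.0132 by limma), and with the last 5 time points for the *REC8* change in *cdc8 cdc20* cells (0.40, adjusted p = 0.0392). The causes were not tested.

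Fitting the 2 strains alone called 1265 probe sets between *cse4-353* and *cdc20* cells (2563 in the fit of all cultures), 1052 between *cse4-353* and *cdc8* cells (2075) and 2247 between *rad53-1 cdc8 cdc20* and *cdc8 cdc20* cells (1385), where the last 5 time points called 355. Periodic calls in *cdc20* cells went from 388 to 203 with all time points and to 6 at p of at most 0.1, and in *rad53-1 cdc8 cdc20* cells from 1133 to 231 and 70.

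Leaving out 1 culture gave 1631 to 3802 arrest calls for *cdc8* minus *cdc20*, 1391 to 3297 for *cse4-353* minus *cdc20*, 1063 to 3437 for *rad53-1 cdc8 cdc20* minus *cdc20*, 908 to 3098 for *cse4-353* minus *cdc8* and 590 to 2561 for *rad53-1 cdc8 cdc20* minus *cdc8 cdc20*. Calls of change ranged from 2433 to 4031 in *cdc20*, 1166 to 3325 in *cdc8*, 3244 to 3465 in *cse4-353*, 2629 to 3568 in *cdc8 cdc20* and 1855 to 3829 in *rad53-1 cdc8 cdc20* cells, and periodic calls, then by 1 culture alone, from 763 to 956 and from 1647 to 1918.

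Deviations of same-numbered cultures had r from −0.28 to 0.21 between strains, with no common sign. With a single difference per strain, this cannot show whether some strains shared a batch. With the replicate number as a block, 2831 probe sets were called between *cdc8* and *cdc20* arrest, against 2977 without, and 1100 between *rad53-1 cdc8 cdc20* and *cdc8 cdc20* cells, against 1385. The block lost the calls of *IME2* (adjusted p = 0.0601 by limma) and *REC8* (adjusted p = 0.0528) between *cdc8* and *cdc20* arrest. It also lost that of *IME2* between *cse4-353* and *cdc8* arrest (adjusted p = 0.0705), and gained that of the *SPO13* change in *cdc8* cells (adjusted p = 0.0169). The filter on dim probe sets removed all 10 members and gave no value for them. All members are dim when averaged over the arrays, although single arrays placed *REC104* as high as percentile 93.4 and *RIM4* at 82.6. A single *cdc8 cdc20* culture was measured.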
